A study of Mus musculus with 6 samples.

Results

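KCTD genes encode small proteins named for a potassium channel tetramerisation domain. Here 10 of them were followed in mouse cells labelled as macrophages that had been co-cultured with ovarian cancer cells. The 10 were Kctd14, Kctd2, Kctd3, Kctd5, Kctd9, Kctd10, Kctd11, Kctd12, Kctd17 and Kctd20. Kctd14 was chosen by the size of its FPKM difference between the groups, already known to be among the largest, and the others by their family name with their values in view, so the values of all 10 are a description and carry no test. They are 10 of 54532 genes in the deposited table and 10 of the 22 whose symbol is Kctd followed by a number. The other 12 KCTD genes and 3 relatives without the name (Tnfaip1, Shkbp1 and Btbd10) are compared with them.

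The study asked how tumour cells exposed to cisplatin, a platinum drug that crosslinks DNA, act on macrophages. RNA was sequenced from bone marrow-derived macrophages (BMDMs) of C57BL/6 mice (aged 6 to 8 weeks) after culture with ID8, a mouse ovarian cancer cell line. The sample titles and the study's results name BMDMs, whereas its methods and a figure legend name monocytes. In the cisplatin group, 3 libraries came from cultures whose ID8 cells had been pretreated with 40 μM cisplatin, and in the PBS group 3 libraries came from cultures whose ID8 cells had received phosphate-buffered saline. No gene was modified in either group, and both groups contained ID8 cells, so BMDMs cultured alone are not part of the comparison.

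In place of the channel pore of their namesakes, most KCTD proteins carry a BTB domain that binds CUL3, a cullin that scaffolds a ubiquitin ligase, and they act as adaptors that bring proteins to that ligase. A smaller branch binds GABAB receptors, G protein-coupled receptors for the transmitter GABA, as auxiliary subunits. KCTD14 is among the least studied members. It is usually placed beside KCTD7, a protein mutated in a form of progressive myoclonic epilepsy.

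Kctd14 carries most of what follows, and the first 300 of the 861 coding bases (without the stop codon) of its longest coding transcript in GENCODE M21 are printed to identify the measured gene, with the start codon in capitals. No run of 50 bases of a Kctd14 transcript occurred in another KCTD gene or relative, and 6 of its 2311 runs (0.26%) occurred in any other gene.
Kctd14: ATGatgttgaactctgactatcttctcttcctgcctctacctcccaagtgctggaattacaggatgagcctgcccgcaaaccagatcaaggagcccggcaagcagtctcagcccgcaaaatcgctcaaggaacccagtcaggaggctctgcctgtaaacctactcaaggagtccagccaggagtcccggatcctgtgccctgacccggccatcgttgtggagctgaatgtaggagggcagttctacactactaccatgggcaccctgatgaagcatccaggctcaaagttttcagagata

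Levels are FPKM, that is, fragments scaled to gene length and to library size, so they can be compared between genes. A log2 fold change is the difference of log2(FPKM + 1), cisplatin against PBS, and a linear fold is named as such. The whole reads behind the FPKM values summed to between 15776238 and 17924686 per library. A gene counted as higher or lower when limma's Benjamini-Hochberg adjusted p was under 0.05 and the log2 fold change at least 1 in size, which held for 15.9% of the 13441 genes tested (4.67% higher and 11.3% lower). All 10 KCTD members passed the filter on low values. Of the 10, Kctd12 met the criteria for higher, Kctd14, Kctd11 and Kctd17 met those for lower, and 6 met neither. When libraries were scaled by their Y-linked genes (Y-linked scaling), which moved the median of all genes tested to -0.83, none of the 10 met the criteria for higher and 7 met those for lower, beside 85 and 5181 of all genes (628 and 1514 without that scaling). The median log2 fold change was -0.66 over the 10 and -0.0011 over all genes tested. The groups did not overlap for 8 of the 10, beside 72.4% of all genes tested.

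In the PBS libraries, Kctd14 (ENSMUSG00000051727, chromosome 7, 97451323 to 97459557 on the plus strand of GRCm38) was the most abundant KCTD transcript. It was listed at 132, 127 and 134 FPKM in PBS replicates 1 to 3 and at 1.65, 1.35 and 1.65 FPKM in cisplatin replicates 1 to 3. The lowest PBS library was therefore far above the highest cisplatin library. The group means were 131 ± 3.80 and 1.55 ± 0.172 FPKM (SD, n = 3 each), a linear difference of 84.5-fold and a log2 fold change of -5.70 (SE 0.059). Of the 13441 genes, a single one had a lower log2 fold change. That rank depended on the scale. With 0.1 added to FPKM in place of 1, the semaphorin gene Sema6c was lower than Kctd14 (-6.35 against -6.32). The same held with limma voom on recovered reads (-6.60 against -6.31). The summed level of 12 markers of ID8 or mesothelial cells was lower with cisplatin too, at 1084 to 1168 FPKM with PBS and 197 to 216 with cisplatin. Krt19 was the largest part of the PBS sum (588 FPKM, and 51.1 with cisplatin). The markers did not move as one: 7 of the 9 tested fell, and Cdh1 was higher with cisplatin (3.24 and 5.41 FPKM). The part of these cells in the Kctd14 difference was not tested.

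The reads behind Kctd14 were 5977, 5078 and 5356 in the PBS libraries and 72, 57 and 70 in the cisplatin libraries. Kctd14 was thus still detected in every cisplatin library, at a rank between 11246 and 11781 of 13441, where it had ranked between 276 and 278 with PBS. Its coefficient of variation among cisplatin libraries was 11.1%, and counting error alone gives 12.3% at that depth. KCTD7, its neighbour in the family, gives a contrast: Kctd7 was at 2.07 ± 0.191 FPKM with PBS and 1.95 ± 0.0973 with cisplatin (log2 fold change -0.056, limma adjusted p = 0.563; 0.10 after quantile normalisation and 0.0085 with voom on recovered reads). The ratio of Kctd14 to Kctd7 went from 63.6 ± 7.03 to 0.794 ± 0.078.

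**Figure D1:**
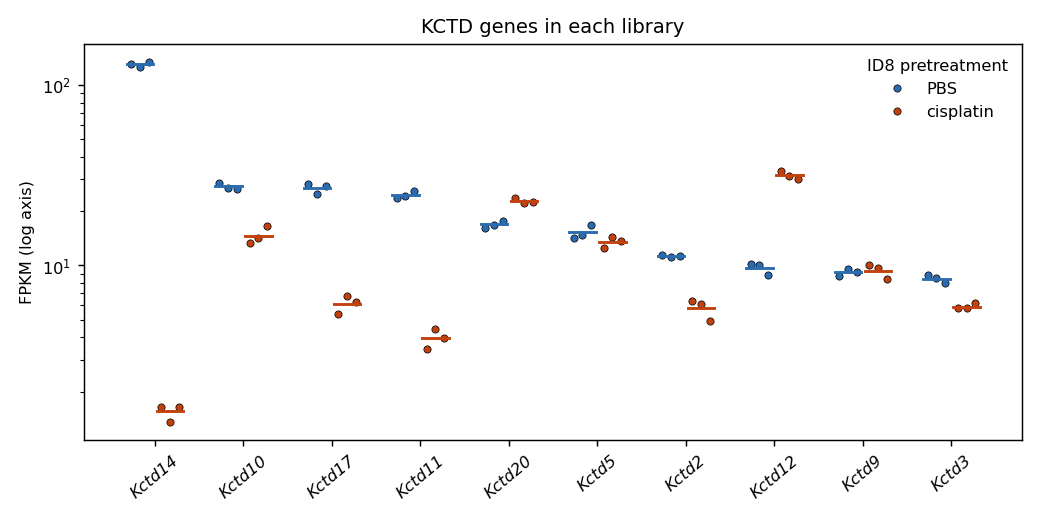
FPKM on a log axis for the 10 KCTD members, with 1 point per library (blue, PBS; orange, cisplatin) and a line at the mean of 3 libraries. Kctd14 lies between 127 and 134 FPKM with PBS and between 1.35 and 1.65 with cisplatin, Kctd12 is the member whose cisplatin points lie farthest above its PBS points, and the points of Kctd5 and Kctd9 overlap.

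Kctd2, Kctd5 and Kctd17 encode a trio of close relatives. KCTD5 targets the beta-gamma subunits of G proteins through CUL3, and KCTD17 targets trichoplein, a protein that holds back the primary cilium. Kctd17 (chromosome 15, 78428564 to 78439303) was at 28.2, 25.01 and 27.8 FPKM with PBS and at 5.39, 6.78 and 6.27 with cisplatin. The highest cisplatin value, 6.78 FPKM, was far under the lowest PBS value, and the means of 27.0 ± 1.72 and 6.15 ± 0.703 FPKM gave a log2 fold change of -1.97 (SE 0.084), or 4.39-fold on the linear scale. Kctd2 (chromosome 11, 115420128 to 115431274) was at 11.5, 11.2 and 11.2 FPKM with PBS and at 6.39, 6.09 and 4.95 with cisplatin. These groups did not overlap either, with a log2 fold change of -0.86 (SE 0.085; -1.74 under Y-linked scaling, past the threshold) and a linear difference of 1.94-fold.

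Kctd5 (chromosome 17, 24047734 to 24073485) differed from both relatives in that its groups overlapped. It was at 14.3, 14.8 and 16.7 FPKM with PBS and at 12.5, 14.5 and 13.6 with cisplatin, a log2 fold change of -0.16 (SE 0.074; -1.09 under Y-linked scaling, past the threshold). The make-up of the trio was therefore not the same in the groups. Kctd17 over Kctd5, taken within each library, was 1.77 ± 0.173 with PBS and 0.453 ± 0.0206 with cisplatin, and Kctd17 over Kctd2 was 2.39 ± 0.130 and 1.07 ± 0.214. Tchp, which encodes trichoplein, was at 2.44 FPKM with PBS and 2.09 with cisplatin (log2 fold change -0.15, limma adjusted p = 0.121).

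Kctd10, Kctd13 and Tnfaip1 encode the BACURD adaptors, which bring the small GTPases RhoA and RhoB to CUL3 and bind PCNA, the sliding clamp of DNA replication. Kctd10 (chromosome 5, 114363567 to 114380508) was at 28.7, 27.1 and 26.6 FPKM with PBS and at 13.3, 14.1 and 16.5 with cisplatin. The groups were apart, with means of 27.5 ± 1.10 and 14.6 ± 1.69 FPKM, a log2 fold change of -0.87 (SE 0.080; -1.81 under Y-linked scaling, past the threshold) and a linear difference of 1.88-fold. Its relatives differed less: Tnfaip1 was at 22.7 and 16.6 FPKM (log2 fold change -0.43, limma adjusted p = 0.000246), and Kctd13 at 6.15 and 5.07 FPKM (-0.23, limma adjusted p = 0.0369). Under Y-linked scaling Tnfaip1 was at -1.38, past the threshold, among 4 other KCTD genes and relatives that were then lower. Of the 50-base runs of Kctd10 transcripts, 35.1% also occur in Myo1h on the opposite strand. Whether reads were counted by strand is not stated, so the value of Kctd10 is less certain. Myo1h held 62 to 68 reads with PBS and 15 to 20 with cisplatin, and Kctd10 held 1668 to 2053 and 911 to 1102.

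Of the GTPases, Rhob was at 77.7 FPKM with PBS and 55.2 with cisplatin (log2 fold change -0.48, limma adjusted p = 2.51e-05), and Rhoa at 51.3 and 48.1 (-0.093, limma adjusted p = 0.0429). Pcna was at 65.6 and 81.2 FPKM (log2 fold change 0.31, limma adjusted p = 0.000151). None of these differences reached the fold threshold.

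Kctd11 encodes a suppressor of Hedgehog signalling that brings the deacetylase HDAC1 to CUL3, and Kctd6 and Kctd21 encode its relatives with the same role. Kctd11 (chromosome 11, 69878261 to 69881406) was at 23.8, 24.4 and 25.9 FPKM with PBS and at 3.44, 4.43 and 3.98 with cisplatin. No values overlapped, and the means of 24.7 ± 1.11 and 3.95 ± 0.498 FPKM gave a log2 fold change of -2.38 (SE 0.080), or 6.25-fold on the linear scale. Among the 10 members this was second to Kctd14. The gene has 1 annotated exon in its coding transcript, and none of its 50-base runs occurred in another gene.

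With PBS the relatives of Kctd11 were far less abundant, and with cisplatin the levels were closer. Kctd6 was at 3.09 ± 0.149 FPKM with PBS and 2.82 ± 0.265 with cisplatin (log2 fold change -0.099, limma adjusted p = 0.284; 0.055 after quantile normalisation). Kctd21 was at 2.76 ± 0.0978 and 2.06 ± 0.304 FPKM (-0.30, limma adjusted p = 0.0229). Kctd11 over Kctd6 went from 8.01 ± 0.236 to 1.42 ± 0.284, and Kctd11 over Kctd21 from 8.95 ± 0.196 to 1.93 ± 0.122. Hdac1, the target, was at 32.3 and 35.2 FPKM (log2 fold change 0.12, limma adjusted p = 0.0286), and Sufu, a Hedgehog pathway inhibitor, at 12.2 and 6.50 (-0.81, limma adjusted p = 2.01e-05).

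Kctd12 belongs to the branch that joins GABAB receptors, where KCTD12 speeds the desensitisation of the receptor response. It was the member highest in the cisplatin group and the only one of the 10 that met the criteria for higher, though under Y-linked scaling its log2 fold change was 0.67 and none of the 10 met them. Kctd12 (ENSMUSG00000098557, chromosome 14, 102976581 to 102982637 on the minus strand) was at 10.1, 10.1 and 8.82 FPKM with PBS and at 33.4, 31.3 and 30.2 with cisplatin. The groups were well apart, with means of 9.69 ± 0.760 and 31.6 ± 1.62 FPKM, a log2 fold change of 1.61 (SE 0.066) and a linear difference of 3.27-fold. The reads behind it were 828 to 1088 with PBS and 3025 to 3442 with cisplatin.

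The lincRNA Gm26778 lies over Kctd12 on the opposite strand, and it was listed at 0 in all 6 libraries. Of the 50-base runs of Kctd12, 62.0% also occur in any of 40 other genes, of which Gm26778 shares the most. With strand use not stated, the value of Kctd12 is less certain for the same reason as that of Kctd10. The other GABAB branch genes were at the bottom of the family. Kctd12b was at 0.179 ± 0.0998 FPKM with PBS and 0.224 ± 0.0873 with cisplatin, Kctd16 reached at most 0.0476 FPKM in any library, and Kctd8 was listed at 0 throughout. Of the receptor genes, Gabbr1 was at 4.92 and 5.86 FPKM (log2 fold change 0.21, limma adjusted p = 0.0747).

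The 250 bases before the annotated start of Kctd12 are shown because it is the single member that was higher by the criteria (not under Y-linked scaling) and no exon of any gene lies in the window (RefSeq, GRCm38.p6, chr14:102982638-102982887, minus strand, printed 5′ to 3′ along the gene). Capitals mark GGGCGG, the GC box, found at 7 places on either strand.
Kctd12 promoter: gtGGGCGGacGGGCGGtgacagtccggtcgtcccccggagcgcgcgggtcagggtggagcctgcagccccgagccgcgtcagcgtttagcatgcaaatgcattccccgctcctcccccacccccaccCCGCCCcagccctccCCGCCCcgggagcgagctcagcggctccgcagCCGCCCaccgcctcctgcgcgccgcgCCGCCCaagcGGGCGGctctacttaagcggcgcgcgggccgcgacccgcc

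In the Kctd12 window 77.6% of the bases were G or C, where the median over 32851 windows of the same length was 52.4%, and 32.7% of all windows held at least 1 GC box on either strand. RefSeq windows were at hand for 7 of the 10 members, 9 windows in all, of which 3 belong to Kctd20. Kctd14, Kctd9 and Kctd17 had no entry. A GC box was found in 7 of the 9 windows, all but that of Kctd2 and 1 of Kctd20. The 9 are not separate upstream stretches: the Kctd20 windows that start at 28952186 and 28952349 overlap. Those of Kctd3, Kctd10, Kctd11 and Kctd20 also hold exon bases of their own gene. The AP-1 site TGANTCA was found on either strand in the window of Kctd11 and in 1 of Kctd20 (6.75% of all windows), and the TATA box TATAAA in none of the 9 (12.4% of all windows). These matches describe letters in a window and say nothing of binding.

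Kctd20 and Btbd10 encode relatives that promote the phosphorylation of the kinase Akt. Kctd20 (chromosome 17, 28951950 to 28969549) was at 16.2, 16.8 and 17.6 FPKM with PBS and at 23.7, 22.3 and 22.4 with cisplatin. The groups were apart by a modest margin, with a log2 fold change of 0.41 (SE 0.047) that turned to -0.54 under Y-linked scaling. Btbd10 was at 4.08 and 5.93 FPKM, under the fold threshold (log2 fold change 0.45, limma adjusted p = 0.000491; -0.38 under that scaling), and Kctd20 over Btbd10 was 4.14 ± 0.224 with PBS and 3.85 ± 0.268 with cisplatin. Akt1 was at 51.2 and 69.6 FPKM (log2 fold change 0.43, limma adjusted p = 0.000140), and its value under that scaling was not listed.

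Kctd3 encodes an accessory protein of the pacemaker channel HCN3. Kctd3 (chromosome 1, 188971095 to 189007841) was at 8.81, 8.55 and 8.04 FPKM with PBS and at 5.82, 5.78 and 6.17 with cisplatin. The groups were apart, with a log2 fold change of -0.45 (SE 0.054; -1.32 under Y-linked scaling, past the threshold). Its relative Shkbp1 was at 7.66 and 7.90 FPKM (log2 fold change 0.042, limma adjusted p = 0.656; -0.84 under Y-linked scaling), so Kctd3 over Shkbp1 went from 1.11 ± 0.0594 to 0.752 ± 0.0498.

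Kctd9, whose product carries pentapeptide repeats beside its BTB domain, was the member with the smallest difference. Kctd9 (chromosome 14, 67715937 to 67742310) was at 8.76, 9.59 and 9.19 FPKM with PBS and at 10.03, 9.65 and 8.45 with cisplatin. The groups overlapped, and the log2 fold change of 0.025 (SE 0.070) became -0.021 without cisplatin replicate 1, -0.0045 without PBS replicate 1 and -0.87 under Y-linked scaling.

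**Figure D2:**
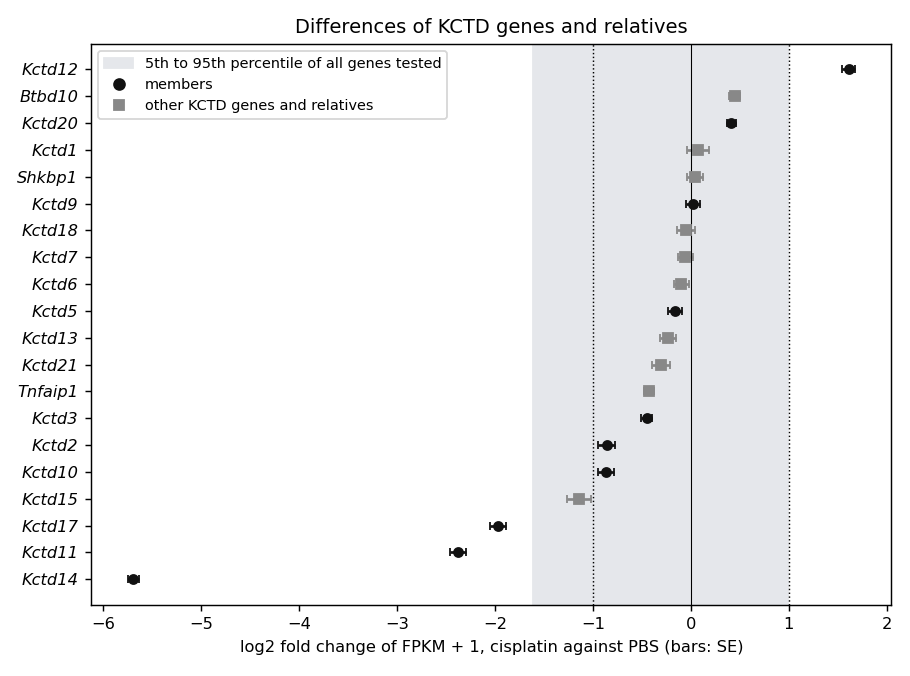
Log2 fold change of FPKM + 1, cisplatin against PBS, with SE bars, for the 10 KCTD members (circles) and the tested other KCTD genes and relatives (squares). The shaded band runs from -1.61 to 0.99, the 5th to 95th percentile of all genes tested, and Kctd14, Kctd11 and Kctd17 lie below it and Kctd12 above it (under Y-linked scaling, Kctd20, Kctd9, Btbd10, Shkbp1 and Kctd1 turn negative).

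The order of KCTD levels was not the same in the groups. With PBS it ran from Kctd14 to Kctd10, Kctd17 and Kctd11, whose values overlapped from one to the next, then Kctd20 and Kctd5, which overlapped, then Kctd2, and then Kctd12, Kctd9 and Kctd3, which overlapped. With cisplatin it ran from Kctd12 to Kctd20, then Kctd10 and Kctd5, which overlapped, then Kctd9, then Kctd17, Kctd3 and Kctd2, which overlapped with each other and, at their lower end, with Kctd13, a gene outside the 10. Kctd11 and Kctd14 came after these, and the 3 cisplatin values of Kctd14 overlapped those of Kctd18. The lowest member with PBS, Kctd3 at 8.47 FPKM, was above the next KCTD gene, Kctd13 at 6.15 FPKM.

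Summed over the 22 KCTD genes, 296 to 307 FPKM were listed per PBS library and 131 to 134 per cisplatin library. Kctd14 alone was 42.9% to 43.7% of the sum with PBS and 1.01% to 1.26% with cisplatin. Without Kctd14 the sums were 169 to 173 and 129 to 133 FPKM, so the groups remained apart. Kctd12 went from between 2.87% and 3.42% of the sum to between 23.1% and 25.03%, and Kctd20 from between 5.33% and 5.74% to between 16.6% and 17.8%. The 12 KCTD genes outside the list held 6.83% to 7.22% and 12.6% to 13.4%. Since the sum was lower with cisplatin, mostly through Kctd14, a share could grow without a rise in FPKM. In FPKM, Kctd12 was 3.27-fold and Kctd20 1.35-fold higher, and none of the 12 met the criteria for higher. The share of Kctd10 was larger with cisplatin (9.93% to 12.6%) than with PBS (8.66% to 9.45%), though its mean fell from 27.5 to 14.6 FPKM.

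**Figure D3:**
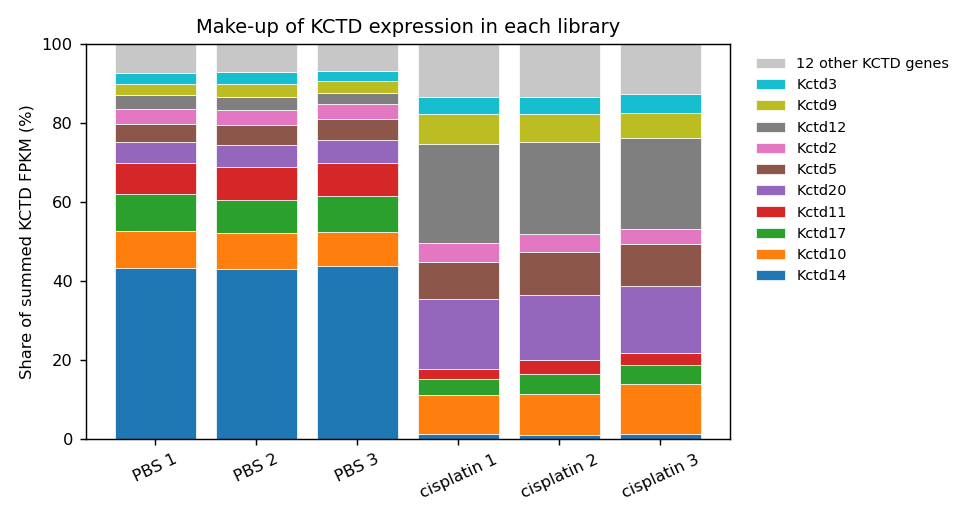
Share of the summed FPKM of 22 KCTD genes in each of the 6 libraries, in percent, with 1 colour per member and light grey for the 12 other KCTD genes. Kctd14 takes 42.9% to 43.7% of each PBS bar and 1.01% to 1.26% of each cisplatin bar, and Kctd12 takes 23.1% to 25.03% of each cisplatin bar. The summed FPKM behind the bars was lower with cisplatin.

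The SD of log2(FPKM + 1) among libraries of a group was between 0.052 (Kctd3) and 0.12 (Kctd17), beside a median of 0.086 over all genes tested, and was above that median for 7 of the 10 members. The size of the log2 fold change had a median of 0.39 over all genes tested, so that of Kctd9 and Kctd5 was below the middle of all genes and that of Kctd20 close to it.

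Of the other KCTD genes and relatives, 10 of 15 passed the filter, 1 fell, none rose, and at the adjusted p alone 1 was higher and 4 lower, where the shares over all genes were 32.9% and 35.1%. With limma, 5 of the 10 had an unadjusted p under 0.05, as had 70.7% of all genes tested. The gene that fell was Kctd15, whose product inhibits neural crest formation and the factor AP-2. It went from 2.57 ± 0.0429 to 0.626 ± 0.255 FPKM (log2 fold change -1.15, SE 0.12, limma adjusted p = 0.000167), and its change was -0.98 after quantile normalisation, under the threshold. Kctd1, its closest relative, was at 2.90 and 3.11 FPKM (log2 fold change 0.070, limma adjusted p = 0.603; -0.68 under Y-linked scaling and -0.014 without cisplatin replicate 1). Kctd18 was at 1.53 and 1.45 FPKM (-0.046, limma adjusted p = 0.684; 0.11 after quantile normalisation, 0.016 with voom and 0.020 without PBS replicate 2). Kctd4, Kctd8, Kctd12b, Kctd16 and Kctd19 were too low to be tested.

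The genes of the ligase that KCTD adaptors serve were examined next. Cul3 was at 33.5 and 34.8 FPKM (log2 fold change 0.057, limma adjusted p = 0.332; -0.91 under Y-linked scaling), and Rbx1, the RING subunit of the ligase, at 17.4 and 17.6 (0.013, limma adjusted p = 0.799; -0.93 under that scaling). Of the 24 genes of CUL3, of neddylation (the attachment of NEDD8 that switches cullins on) and of the COP9 signalosome that removes NEDD8, none rose or fell by limma. By unadjusted p, 14 of the 24 were under 0.05 (70.7% of all genes), at the adjusted p alone 6 were higher and 8 lower, and 1 fell with voom on the recovered reads, with a pseudocount of 0.1 and after TPM rescaling. Under Y-linked scaling 8 fell. The 24 had a median log2 fold change of -0.036. The lowest value, -0.82, was that of Dcun1d4, a neddylation helper (4.04 and 1.86 FPKM, limma adjusted p = 4.08e-05).

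Among 28 tested genes of 31 other BTB adaptors of CUL3, 1 fell and none rose, with a median of -0.11. At the adjusted p alone 7 were higher and 12 lower, and by limma's unadjusted p 20 of the 28 were under 0.05, beside 70.7% of all genes (with voom, 1 rose and 2 fell). The one that fell was Rhobtb1, whose product carries BTB domains, from 4.15 to 1.57 FPKM (log2 fold change -1.01, limma adjusted p = 3.91e-05), and it missed the threshold after median-of-ratios scaling, after quantile normalisation and without cisplatin replicate 3 (-0.94). Among 13 tested genes of 18 KCTD partners, 1 fell and none rose, with a median of -0.038 and 7 of the 13 under an unadjusted p of 0.05 (70.7% of all genes). This was Gnb5, an atypical G protein beta subunit, from 3.86 to 1.42 FPKM (-1.01, limma adjusted p = 1.41e-05), which missed the threshold after median-of-ratios scaling, after quantile normalisation and without PBS replicate 2 or cisplatin replicate 1. Gnb1 and Gnb2, the abundant beta subunits, were at 103 and 98.4 FPKM and at 91.9 and 93.2 FPKM.

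**Figure D4:**
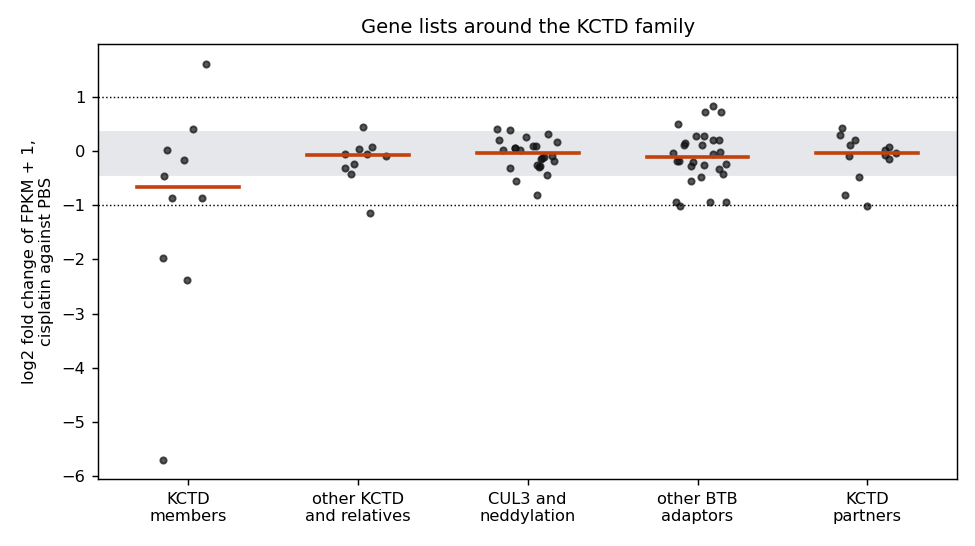
Log2 fold change of FPKM + 1, cisplatin against PBS, of each tested gene of the 10 KCTD members and of 4 other lists, with the list's median as an orange line. Dotted lines mark the threshold of 1 in either direction and the band the middle of all genes tested (-0.44 to 0.36), and the KCTD members, chosen with these values known, run from -5.70 to 1.61 with a median of -0.66.

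To see whether the stretch of chromosome around Kctd14 differed with it, the genes that reach within 250 kb were taken. Of 17 such genes, 9 were tested, 1 fell, none rose, 8 of the 9 had an unadjusted p under 0.05 by limma (70.7% of all genes), and at the adjusted p alone 2 were higher and 5 lower. The gene that fell was Aamdc, from 2.24 to 0.595 FPKM (log2 fold change -1.02, limma adjusted p = 0.000118), which missed the threshold after quantile normalisation (-0.83) and without PBS replicate 3 (-0.99) or cisplatin replicate 2 (-0.96). Ndufc2, a subunit of mitochondrial complex I, was at 52.2 and 43.2 FPKM (-0.27, limma adjusted p = 0.00898), and Ints4, a subunit of the Integrator complex, at 14.2 and 8.13 (-0.74, limma adjusted p = 0.000445). Under Y-linked scaling Ndufc2 was at -1.25 and Ints4 at -1.64, past the threshold.

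On the same stretch, Gab2, a docking protein of receptor signalling, was at 9.65 and 17.5 FPKM (log2 fold change 0.79, limma adjusted p = 4.99e-06; -0.13 under Y-linked scaling). Alg8, a glycosyltransferase of the endoplasmic reticulum, was at 5.64 and 9.99 FPKM (0.73, limma adjusted p = 1.36e-05; -0.15 under that scaling). The other tested genes, Usp35, Kctd21, Rsf1 and Clns1a, lay between -0.30 and 0.10. Under Y-linked scaling Clns1a turned to -0.83, and 5 of the 9 tested genes around Kctd14 were lower. Thrsp, a regulator of lipid synthesis named after its values were seen, was too low to be tested, with 29, 21 and 26 reads in the PBS libraries and 1, 1 and 0 in the cisplatin libraries.

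**Figure D5:**
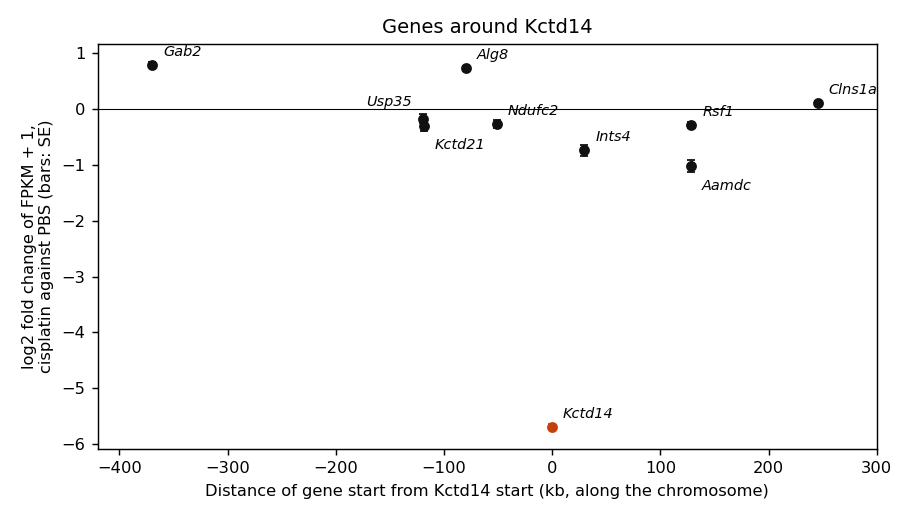
Log2 fold change of FPKM + 1, cisplatin against PBS, with SE bars, against the distance of each gene's start from that of Kctd14 in kb. Kctd14 (orange) is at -5.70 and the 9 tested genes around it lie between -1.02 (Aamdc) and 0.79 (Gab2, -0.13 under Y-linked scaling).

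The genes whose profile over the 6 libraries was most like that of Kctd14 were sought by the root mean square difference between centred log2(FPKM + 1) values, where 0 means an identical profile. Since libraries of a group lie close together, this measure mostly follows the likeness of the log2 fold changes by which Kctd14 was chosen. Of the 5 nearest genes 1 is not reported here, so Nos2, given first, need not be the nearest. Nos2, the inducible nitric oxide synthase of activated macrophages, had a difference of 0.32 and went from 128 ± 1.70 to 2.76 ± 0.407 FPKM. Sema6c, a semaphorin, had 0.44 and went from 37.9 ± 1.41 to 0.369 ± 0.0639 FPKM. Sprr1a, a cornified envelope protein of squamous epithelia, had 0.50 and went from 143 ± 1.73 to 4.57 ± 0.522 FPKM. Cyp2s1, a cytochrome P450, had 0.58 and went from 43.4 ± 0.519 to 0.905 ± 0.0459 FPKM. Among the members, Kctd11 was nearest at 1.66, followed by Kctd17 at 1.87.

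The libraries also differed in cell type markers. All 12 macrophage markers were detected, 4 rose and none fell, and their summed level was 1952 to 1976 FPKM with PBS and 4774 to 4940 with cisplatin. Of 12 ID8 or mesothelial markers, 9 were tested, 7 fell and none rose, and Krt7, Epcam and Cldn7 were under 1 FPKM in every library. The list did not move as one: Msln was at 99.9 FPKM with PBS and 61.0 with cisplatin (log2 fold change -0.70, limma adjusted p = 4.18e-06), and Cdh1 at 3.24 and 5.41 (0.60, limma adjusted p = 0.00238). All 4 B cell markers rose (188 to 195 and 432 to 442 FPKM), 5 of 8 neutrophil or immature myeloid markers rose (4595 to 4750 and 8237 to 8504 FPKM), 1 of 2 tested fibroblast markers of 6 fell (55.6 to 59.6 and 17.6 to 19.4 FPKM), and of the 3 tested T cell markers of 6 none reached the fold threshold (6.40 to 7.81 and 9.24 to 10.3 FPKM). At the adjusted p alone, the T cell markers Cd8a (log2 fold change 0.40, limma adjusted p = 0.00594) and Trbc2 (0.30, limma adjusted p = 0.0240) were higher. Single genes carried most of some sums: Lyz2 (1161 and 3459 FPKM) that of macrophages and Dcn (54.1 and 16.2 FPKM) that of fibroblasts. S100a9 (3105 and 5233 FPKM) and S100a8 (1423 and 2581 FPKM) carried that of neutrophil or immature myeloid cells, and neither reached the fold threshold. Transcripts that mark other cell types were thus present in both groups, and in bulk RNA fewer cells of a type and less RNA per cell cannot be told apart.

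Beside these markers, Kctd14 over Krt19, the marker of that list with the lowest log2 fold change, -3.50 (588 ± 28.8 and 51.1 ± 3.80 FPKM), was 0.223 ± 0.00559 with PBS and 0.0306 ± 0.00516 with cisplatin. Since Kctd14 was chosen for its difference, these ratios are a description. Xist, transcribed from the inactive X of female cells, went from 42.7 ± 5.35 to 7.79 ± 0.194 FPKM, and Kctd14 over Xist from 3.11 ± 0.438 to 0.199 ± 0.0175. Ddx3y, from the Y chromosome, went from 8.10 ± 0.520 to 19.2 ± 0.662 FPKM, a log2 fold change of 1.15. Y-linked scaling used Ddx3y together with Eif2s3y (log2 fold change 0.68), Kdm5d (0.73) and Uty (0.55), which differed less. The part of cell make-up in the KCTD differences was not tested.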

How the data were processed

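Poly(A) RNA of BMDMs collected after co-culture with ID8 cells was sequenced in 6 libraries (3 PBS, 3 cisplatin). The deposited FPKM were made by the authors from reads per gene. The submitters' processing notes name fastp, HISAT2 2.0.5, featureCounts 1.5.0-p3 and mm10, whereas the study's methods name LifeScope and DESeq2, so which tools made the FPKM is unclear. Strand use is not stated. Coordinates are those of the table, and those of 24 of 25 KCTD genes and relatives equal GENCODE M21 (GRCm38).

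Genes were kept where 3 or more of the 6 libraries had an FPKM of 1 or higher, and were tested on log2(FPKM + 1) with limma 3.58.1 in R 4.3.3 (lmFit, eBayes with trend), group as the only term, in place of the count test of the study. Multiplied by length, 100% of values under 200 reads were whole within 0.05 reads, and the recovered reads served for depth and for limma voom. The denominator of the FPKM was 97.4% to 98.7% of the recovered reads with PBS and 103.7% to 104.1% with cisplatin. Counting errors cover reads only. The study's methods speak of biological replicates without saying whether these were separate mice or cultures, so p-values measure only the spread between these libraries, which may be partly technical. The procedure was tested on simulated data.

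The members and gene lists were chosen with earlier results of these data known. Named were all KCTD genes, Tnfaip1, Shkbp1, Btbd10, Cul3, Rbx1, tested genes within 250 kb of Kctd14, up to 3 called genes per list and the 5 tested genes most like Kctd14, of which 1 is not reported here. Tchp, Hdac1, Sufu, Rhoa, Rhob, Pcna, Akt1, Gabbr1, Gnb1, Gnb2, Dcun1d4 and Thrsp were named after their values were seen, and were not followed singly over the alternatives. Alternatives were a pseudocount of 0.1, no filter, FPKM of at least 5, median-of-ratios, TPM, quantile and Y-linked scaling, voom, a replicate block, leaving out each library, and the adjusted p alone. Equal replicate numbers did not pair libraries: their deviations from the group means correlated at -0.10, -0.086 and -0.024 over genes.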

Additional observations from a re-analysis of the deposited data

How the results depend on the processing

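Over 14 settings other than Y-linked scaling, the log2 fold change of Kctd14 ran from -6.32 to -5.63, of Kctd11 from -2.62 to -2.29, of Kctd17 from -2.12 to -1.89 and of Kctd12 from 1.55 to 1.79. Y-linked scaling moved the median of all genes to -0.83. Under it Kctd14 was at -6.47, Kctd12 at 0.67 and Kctd20 at -0.54, and relative to that median at -5.64, 1.504 and 0.29. For most of these shifts the cause was not tested.

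Under Y-linked scaling 85 genes were higher and 5181 lower (628 and 1514 in the main analysis), with 0 and 7 members, and with 4 other KCTD genes and relatives, 8 CUL3 and neddylation genes, 10 BTB adaptors, 5 partners and 5 genes around Kctd14 lower. At the adjusted p alone, which drops the fold threshold, the higher and lower counts were 4424 and 4721 of all genes, 2 and 6 members, 1 and 4 other KCTD genes and relatives, 6 and 8 CUL3 genes, 7 and 12 BTB adaptors, 3 and 4 partners, and 2 and 5 genes around Kctd14. With a pseudocount of 0.1, 973 genes were higher, and 1 CUL3 gene was lower, 1 BTB adaptor higher and 3 lower. With voom, 1227 genes were higher, and 1 CUL3 gene was lower, 1 BTB adaptor higher and 2 lower. TPM rescaling gave 1 CUL3 gene lower, and 1 BTB adaptor higher and 3 lower. With FPKM of at least 5 (fewer genes tested) and after quantile normalisation, 0 genes of the other KCTD, BTB adaptor, partner and neighbour lists were lower, and after median-of-ratios scaling 0 BTB adaptors and 0 partners. Leaving out 1 library gave 0 to 2 BTB adaptors (0 without cisplatin replicate 3, 2 without cisplatin replicate 2), 0 to 1 partners (0 without PBS replicate 2 or cisplatin replicate 1) and 0 to 1 genes around Kctd14 (0 without PBS replicate 3 or cisplatin replicate 2) lower.

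Signs turned under Y-linked scaling for Kctd20 (-0.54), Kctd9 (-0.87), Cul3 (-0.91), Rbx1 (-0.93), Clns1a (-0.83), Gab2 (-0.13), Alg8 (-0.15), Shkbp1 (-0.84), Btbd10 (-0.38) and Kctd1 (-0.68), after quantile normalisation for Kctd6 (0.055), Kctd7 (0.10) and Kctd18 (0.11), with voom for Kctd7 (0.0085) and Kctd18 (0.016), and without 1 library for Kctd9 (-0.021 without cisplatin replicate 1 and -0.0045 without PBS replicate 1), Rbx1 (-0.0052 to 0.033), Shkbp1 (-0.022 to 0.096), Kctd1 (-0.014 to 0.18) and Kctd18 (-0.082 to 0.020). In the fit with a replicate block, 625 genes were higher and 1515 lower, members stayed at 1 and 3, and 0 calls of members or list genes differed. Depth limits Kctd14 with cisplatin, where 57 to 72 reads lie behind each value.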
